A study of Mus musculus with 60 samples.

Results

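The 10 genes described here are members of the interleukin-6 (IL-6) cytokine family and its signalling route, measured by RNA sequencing in cultured mouse fibroblasts. They were taken by name from both count tables of the series, and all 10 were found among the 56980 gene identifiers of each table and passed the filter on low counts in both. In the order used below they are 2 ligands (Il11 and Lif), 6 receptor genes (Il31ra, Osmr, Lifr, Il6st, Il6ra and Il11ra1), the transcription factor gene Stat3 and the feedback inhibitor gene Socs3.

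Cytokines of this family act through receptor complexes that share the signal-transducing chain gp130, the product of Il6st. IL-6 and IL-11 bind through the alpha chains encoded by Il6ra and Il11ra1, LIF pairs gp130 with the LIF receptor, and oncostatin M pairs it with OSMR. IL-31 is the exception, since its receptor joins IL31RA with OSMR and contains no gp130. Bound receptors activate JAK kinases, which phosphorylate STAT3. STAT3 drives transcription of Socs3, whose product blocks the receptor and so limits the signal. Fibroblasts are a known source of LIF and IL-11, and LIF is added to cultures of mouse pluripotent cells to keep them undifferentiated.

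The reprogramming table held 36 libraries of tail tip fibroblasts in which doxycycline (2 µg/ml) switches on a polycistronic Oct4, Klf4, Sox2 and c-Myc transgene at Col1a1. The authors describe the M2-rtTA allele at ROSA26 for the Ercc1 mutant line. They cite different source mice for the 4Fj transgene and for the Oct4-EGFP cells, so the cassette may differ between the lines. D/KO cells (4FJ_ERCC1_(d/-), male, 8 weeks) carried a single truncated allele of the DNA repair gene Ercc1, and WT cells (4FJ_(+/-)_OCT4-GFP, female, 22 weeks) did not. Both were sampled at days 0, 2 and 4, with or without VC, the mixture of ascorbic acid (50 µg/ml) and the GSK3 inhibitor CHIR-99021 (3 µM). The inhibitor table held 24 libraries without doxycycline named in the labels: tail tip fibroblasts of ERCC1_(d/-) mice (female, 4 weeks), untreated or given Repsox or Vactosertib at 0.1 µM or A83-01 or DMH-1 at 1 µM for 3 days, control ERCC1_(+/+)_WT fibroblasts (female, 14 weeks) from tail tip and from skin, and 4FJ_(+/-)_OCT4-GFP fibroblasts (female, 22 weeks) labelled TGFB. Each of the 20 groups had 3 libraries. Between D/KO and WT cells, genotype, age, line and, in the reprogramming table, sex and possibly the transgene cassette change together and cannot be told apart. The titles call the tail tip controls wt and the skin controls wt-2, so tissue and a possible second source of cells cannot be told apart either. No label says that the 3 libraries of a group were separate animals, so p-values measure the spread between libraries, which may be technical.

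Depth was 16538374 to 18484951 counts a library in the reprogramming table, against 17102639 to 30599138 for the inhibitor libraries. Ercc1 stood at 8.04 to 18.6 CPM (counts scaled to the library size) in the 18 D/KO reprogramming libraries and at 16.9 to 29.1 CPM in the 18 WT libraries. In the inhibitor table it did not separate the labels, with 20.3 to 20.9 CPM in the libraries labelled D/KO control and 13.3 to 21.7 CPM in WT tail tip. Pou5f1, whose counts may include the transgene, stood at 0.471 to 1.1 CPM in D/KO cells at day 0 and at 42.8 to 78.4 CPM at day 4. With VC it went from 2.56 to 2.88 CPM at day 0 to 89.7 to 150 CPM at D4 + VC. In WT cells it went from 1.29 to 2.5 CPM at day 0 to 56 to 65.8 CPM at day 4. With VC the WT values were 1.79 to 2.21 and 88.3 to 108 CPM. All 10 fibroblast markers were detected in every library. Of the other lists, the 7 endothelial markers summed to 739 to 836 CPM in D/KO and 15 to 17.8 CPM in WT cells at day 0, with Pecam1 and Cdh5 present in D/KO cells. The 8 macrophage and leukocyte markers summed to 17.7 to 18.8 CPM in D/KO and 82.4 to 155 CPM in WT cells at day 0. The 9 keratinocyte markers summed to 4.82 to 6.54 CPM at D0 + VC and 343 to 474 CPM at D4 + VC in D/KO cells, with Krt14 up to 421 CPM and at most 1 of the 9 at 0, and reached at most 16.9 CPM in WT cells. The fibroblast sum was 191000 to 263000 CPM at D0 + VC and 36800 to 38400 CPM at D4 + VC in D/KO cells, and 162000 to 178000 and 64400 to 76000 CPM in WT cells. The part of these marker genes in the results below was not tested.

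Il6st and Il31ra lie side by side on chromosome 13. Il6st (ENSMUSG00000021756) spans chr13:112600604-112646620 on the plus strand of GRCm39 and Il31ra (ENSMUSG00000050377) chr13:112656432-112730894 on the minus strand. Osmr and Lifr share chromosome 15, at chr15:6843053-6904450 (minus strand) and chr15:7120095-7226970 (plus strand). Some members overlap other genes in GENCODE M39. Il11ra1 overlaps Galt on its own strand and genes that include Rpp25l, Dctn3, Arid3c and Ccl27a on the other, and Stat3 overlaps Stat5a on the other strand. The strand setting of the counting is not given in the sources used here, so reads of such pairs may be shared.

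The promoters of Il31ra and Socs3 are shown because both hold a STAT motif and because these genes had the widest swings among the receptors and the downstream genes. The windows ran from 250 bases before to 50 bases after the GENCODE M39 canonical start on GRCm39, and the stretches below are read 5′ to 3′ on the gene's strand with the motif in capitals. They cover chr13:112717349-112717417 and chr11:117860308-117860373, both on the minus strand.
Il31ra: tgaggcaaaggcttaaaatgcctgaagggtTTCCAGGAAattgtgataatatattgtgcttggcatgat
Socs3: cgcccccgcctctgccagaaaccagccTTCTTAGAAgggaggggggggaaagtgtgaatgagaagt
The motif searched was TTCNNNGAA, which reads the same on both strands. It was found in the windows of 3 of the 10 members (Il31ra, Socs3 and Il11ra1) and in 8.81% of 21770 protein-coding promoters. The TCF/LEF motif CTTTGAT and the octamer ATGCAAAT, searched on both strands, were found in none of the 10 windows and in 3.37% and 1.63% of all promoters. A match describes the letters only.

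Per kilobase of gene model, Il6st had the highest level of the 10 in the reprogramming table, with a median over the 36 libraries of 114 CPM per kb and a range of 26.3 to 312. Socs3 (median 44.5 CPM per kb), Il11ra1 (29), Stat3 (27.7) and Osmr (15.8) followed, with ranges that overlap one another. Lifr (2.92 CPM per kb) and Il6ra (2.54) were lower. The ligand genes Lif (0.848) and Il11 (0.802) and the receptor gene Il31ra (0.349) were lowest, at low counts in most libraries. Among ligand genes outside the 10, Il6 had 0 to 12 counts in every reprogramming library, Osm 0 to 13 and Il31 0.

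**Figure D1:**
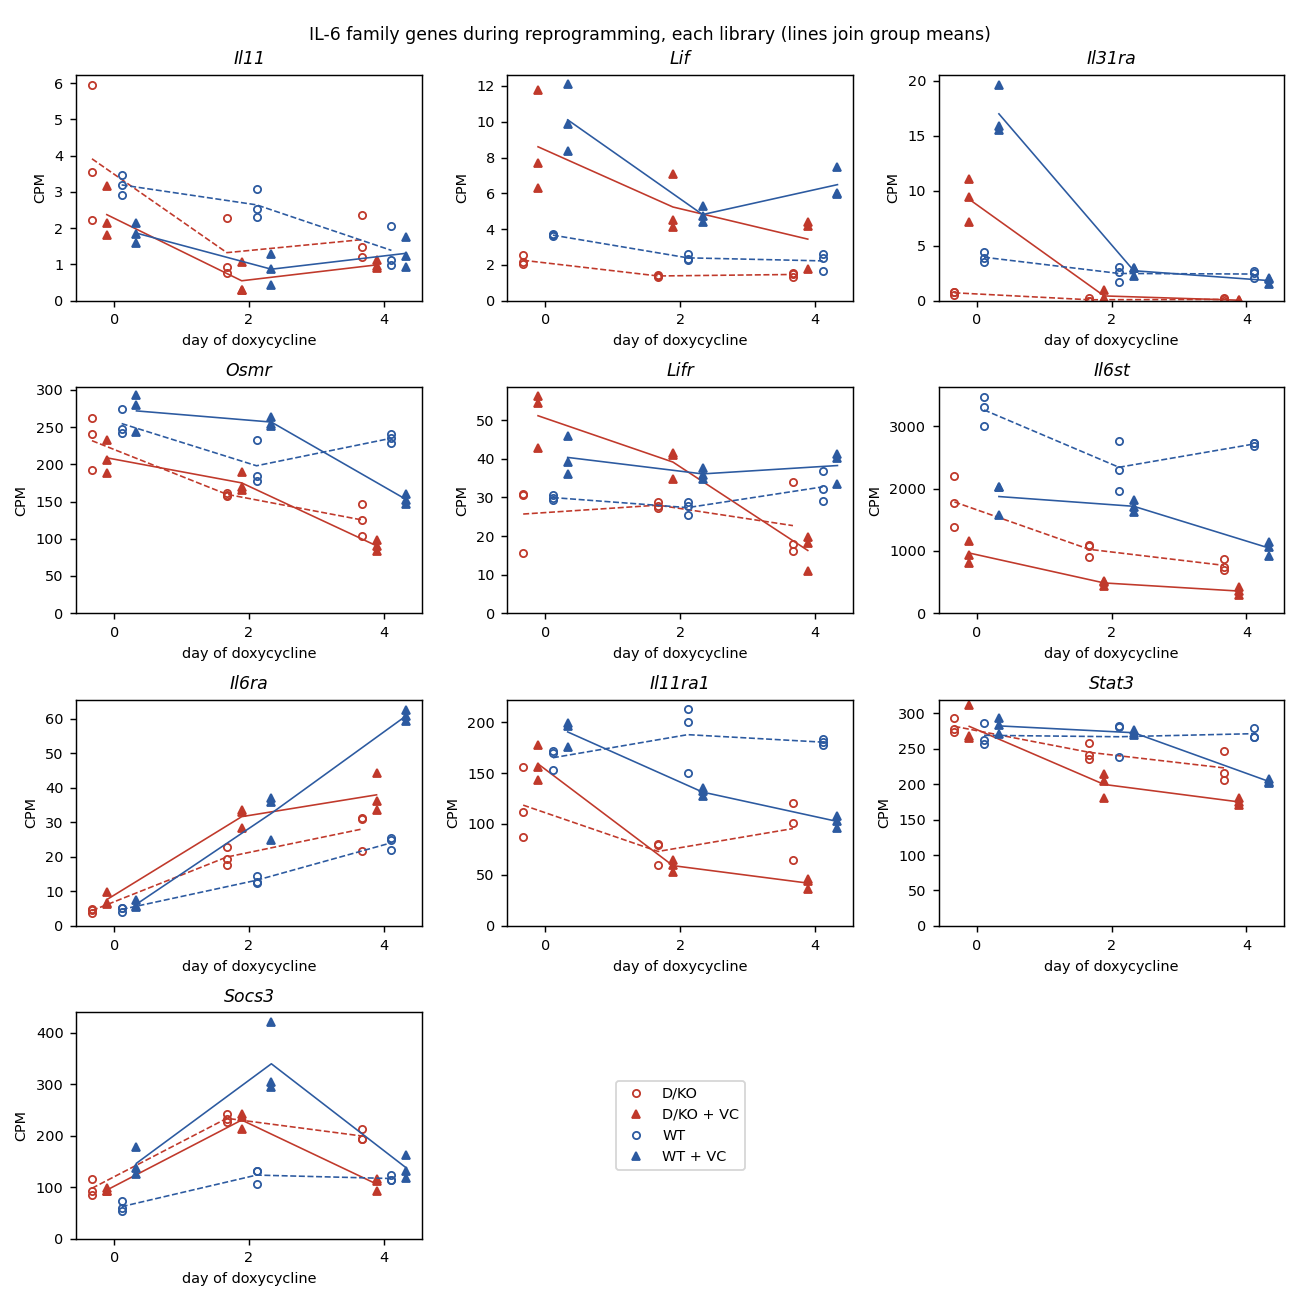
CPM of each gene against the day of doxycycline, 1 point per library (3 a group, linear axes from 0), with lines through group means for D/KO (red) and WT (blue) cells without VC (open circles) and with VC (filled triangles). Il6ra climbs in all 4 series, Il31ra starts high with VC and drops, and Il6st stands higher in WT than in D/KO cells of the same condition.

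From day 0 to day 4 most of the genes that passed were lower in 3 of the 4 arms, with WT cells without VC split evenly. Il6ra was higher in every arm, and Socs3 was higher in both lines without VC. In D/KO cells without VC, 7 of the 10 genes passed the test (adjusted p under 0.05 over all genes), 5 lower and 2 higher, where 37% of all tested genes passed (18.3% higher, 18.7% lower). With VC, 9 of the 10 passed, 8 lower and 1 higher, where 54.1% of all genes passed (27.9% higher, 26.2% lower). In WT cells without VC 4 passed, 2 in each direction, where 24.5% of all genes passed (11.7% higher, 12.8% lower). With VC, 7 passed, 6 lower and 1 higher, where 44.7% of all genes passed (22.7% higher, 22% lower). The median log2 fold change of all genes was at most 0.0261 from 0 in these comparisons. From day 0 to day 4 without VC the fibroblast marker sum went from 96800 to 133000 down to 42900 to 44700 CPM in D/KO and from 63200 to 64000 down to 52600 to 54500 CPM in WT cells, and the keratinocyte sum from 2.18 to 3.48 up to 45.9 to 63 CPM in D/KO cells, with 4.2 to 5.85 CPM at both days in WT cells. The endothelial sum went from 739 to 836 down to 386 to 431 CPM in D/KO and from 15 to 17.8 up to 95.6 to 95.9 CPM in WT cells, and with VC from 280 to 322 up to 568 to 798 and from 5.97 to 7.77 up to 98.4 to 116 CPM. The rising sums do not stand for the whole list. Of its 7 genes, 1 was called higher in WT, 1 higher and 1 lower in WT + VC and 3 and 3 in D/KO + VC cells. The median log2 fold changes were -1.11, -2.78 and -0.39. Of the keratinocyte markers, 4 were called higher and 1 lower in D/KO + VC cells. The Schwann and neural sum with VC went from 8.87 to 12.1 up to 40.8 to 62 CPM in D/KO cells and from 3.72 to 3.87 to 3.87 to 7.19 CPM in WT cells. In these bulk cultures, fewer cells of a type and less RNA per cell cannot be told apart.

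Il6ra, which encodes the binding chain for IL-6, rose in every arm. In D/KO cells it stood at 3.74, 4.63 and 4.95 CPM at day 0, at 22.9, 19.3 and 17.7 CPM at day 2 and at 31.4, 21.8 and 31 CPM at day 4. With VC the 3 D/KO libraries went from 6.47, 6.55 and 9.82 CPM to 44.2, 33.5 and 36.3 CPM at day 4, and the WT libraries from 5.43, 7.62 and 5.84 to 62.6, 59.4 and 60.8 CPM. No day 4 library overlapped a day 0 library of its arm. The log2 fold changes at day 4 were 2.65 ± 0.18 (SE) in D/KO, 2.32 ± 0.17 in D/KO + VC, 2.33 ± 0.18 in WT and 3.27 ± 0.18 in WT + VC, with adjusted p from 2.98e-17 to 1.27e-12. The rise with VC was smaller in D/KO than in WT cells by 0.95 ± 0.24 on the log2 scale (adjusted p = 0.00296), and against day 0 without VC the difference of -0.58 did not pass (adjusted p = 0.101).

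Il31ra, the IL-31 binding chain, showed the widest range of the receptor genes. At day 0 without VC it had 12, 9 and 14 counts in D/KO and 71, 82 and 69 counts in WT libraries. Day 0 with VC gave 171, 95 and 134 counts in D/KO and 252, 319 and 233 counts in WT libraries, above every library without VC of the same line. At day 4 with VC it had 0, 1 and 1 counts in D/KO and 26, 35 and 38 counts in WT libraries. Over the 3 libraries this is 400 against 2 counts in D/KO cells, a ratio of 260 with a 95% interval of 71.5 to 2150 that covers counting error only, and 804 against 99 counts in WT cells, a ratio of 9.3 (7.54 to 11.6). The fall passed the test in both arms (fitted log2 fold changes of -7.75 ± 0.58 and -3.21 ± 0.34, adjusted p = 8.71e-14 and 8.13e-10), and that in D/KO cells was larger (difference -4.54 ± 0.82, adjusted p = 5.55e-05). The baseline set the size, since VC alone had raised Il31ra. Against day 0 without VC (35 and 222 counts) the same libraries were at -4.06 in D/KO and -1.11 in WT cells (adjusted p = 7.3e-05 and 0.00958), with a difference of -2.95 between the lines (adjusted p = 0.0226). Without VC, D/KO cells fell from 35 counts in all to 4 at day 2 and 6 at day 4, while the WT change of -0.71 ± 0.33 did not pass (adjusted p = 0.118). The difference between the lines without VC was -1.94 ± 0.76 (adjusted p = 0.0848, and 0.0374 with DESeq2).

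Osmr, the chain shared by the oncostatin M and IL-31 receptors, fell in 3 of the 4 arms by day 4. D/KO libraries had 192, 262 and 241 CPM at day 0 and 125, 104 and 147 CPM at day 4, a log2 fold change of -0.89 ± 0.12 (adjusted p = 7.49e-08). With VC they had 206, 188 and 232 CPM at day 0 and 98.3, 82.9 and 90.4 CPM at day 4 (-1.2 ± 0.12, adjusted p = 5.41e-11). The groups did not overlap in either arm. WT libraries had 248, 242 and 274 CPM at day 0 and 229, 241 and 235 CPM at day 4, a change of -0.12 ± 0.11 that did not pass (adjusted p = 0.498). With VC WT cells went from 243, 293 and 279 CPM to 160, 152 and 146 CPM (-0.83 ± 0.12, adjusted p = 2.67e-07). The D/KO change was more negative than the WT change without VC (difference -0.77 ± 0.16, adjusted p = 0.000839), and with VC the difference of -0.37 ± 0.16 did not pass (adjusted p = 0.0823, and 0.0459 without D0 + VC replicate 2 of D/KO).

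Il6st, the gp130 gene, was the most abundant member and stood higher in WT than in D/KO cells in every condition. D/KO libraries went from 1770, 2200 and 1390 CPM at day 0 to 864, 694 and 746 CPM at day 4, and with VC from 928, 1160 and 812 CPM to 416, 359 and 292 CPM. All day 4 libraries lay below those of day 0 of their arm. The log2 fold changes were -1.22 ± 0.15 (adjusted p = 2.45e-08) and -1.44 ± 0.15 (adjusted p = 3.73e-10). WT libraries held 3470, 3010 and 3310 CPM at day 0 and 2730, 2740 and 2680 CPM at day 4, a change of -0.26 ± 0.15 (adjusted p = 0.2), although the groups did not overlap, and a fit of only these 2 groups called it (adjusted p = 0.000283). With VC, WT cells fell from 1580, 2020 and 2020 CPM to 1150, 925 and 1070 CPM (-0.84 ± 0.15, adjusted p = 1.94e-05). VC alone had lowered Il6st, and against day 0 without VC the falls at D4 + VC came to -2.33 (D/KO) and -1.64 (WT), with adjusted p of 3.91e-15 and 4.52e-11. The D/KO change exceeded the WT change without VC (-0.96 ± 0.21, adjusted p = 0.00137). With VC the difference of -0.6 ± 0.21 passed (adjusted p = 0.0279) but was lost on leaving out any 1 of 4 libraries, D/KO D0 + VC replicate 2, D/KO D4 + VC replicate 3, WT D0 + VC replicate 1 or WT D4 + VC replicate 1 (differences of -0.53 to -0.45 and adjusted p of 0.0747 to 0.104).

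Lifr, the LIF receptor gene, fell in only 1 of the 4 arms at day 4. D/KO + VC libraries had 56.3, 42.7 and 54.5 CPM at day 0 and 19.7, 11 and 18.1 CPM at day 4, with no overlap and a log2 fold change of -1.65 ± 0.21 (adjusted p = 2.72e-08). WT + VC libraries had 36.1, 45.8 and 39.2 CPM and then 33.5, 40.1 and 41.2 CPM (-0.08 ± 0.2, adjusted p = 0.794). The difference between these changes was -1.57 ± 0.29 (adjusted p = 7.91e-05). VC alone had raised Lifr in D/KO cells, and against day 0 without VC the D/KO fall at D4 + VC was -0.66 (adjusted p = 0.00914), with overlapping groups, and the difference between the lines -1.01 (adjusted p = 0.0114). In D/KO cells without VC the replicates were uneven, at 30.8, 30.6 and 15.7 CPM at day 0 and 16.1, 18 and 34 CPM at day 4. That change of -0.18 ± 0.21 did not pass (adjusted p = 0.546), and without D4 replicate 3 it was -0.59 (adjusted p = 0.0183). In WT cells without VC the change was 0.13 ± 0.2 (adjusted p = 0.705).

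Il11ra1, the IL-11 binding chain, fell with VC in both lines. D/KO + VC libraries went from 156, 178 and 143 CPM to 36.1, 46.1 and 43.8 CPM (-1.92 ± 0.17, adjusted p = 7.98e-12) and WT + VC libraries from 199, 176 and 196 CPM to 103, 108 and 96.4 CPM (-0.89 ± 0.17, adjusted p = 3.52e-05). Neither pair of groups overlapped, and the D/KO change was larger (difference -1.03 ± 0.24, adjusted p = 0.00103). Without VC the changes of -0.31 ± 0.17 in D/KO and 0.13 ± 0.16 in WT cells did not pass. The D/KO change without VC was called on leaving out D0 replicate 3 (-0.48, adjusted p = 0.0249) or D4 replicate 2 (-0.51, adjusted p = 0.021). Il11ra2, a near copy of Il11ra1, was too low to test.

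The ligand genes were low throughout, so their values rest on few counts. Lif, the cytokine used to maintain mouse pluripotent cells, had 32, 37 and 43 counts in D/KO and 67, 67 and 72 counts in WT libraries at day 0. At D0 + VC it had 183, 102 and 90 counts in D/KO and 156, 197 and 126 in WT libraries. At D4 + VC it fell to 83, 75 and 33 counts in D/KO (-1.33 ± 0.25, adjusted p = 3.03e-05) and to 103, 109 and 139 in WT libraries (-0.64 ± 0.24, adjusted p = 0.0285). The baseline decided the direction, since against day 0 without VC the same D4 + VC libraries were higher, by 0.6 in D/KO (adjusted p = 0.0645) and 0.82 in WT cells (adjusted p = 0.00843). The WT + VC fall of Lif was lost on leaving out D0 + VC replicate 1 or 2 or D4 + VC replicate 1 or 2 (-0.66 to -0.49, adjusted p of 0.0513 to 0.141). Without VC the Lif changes were -0.63 ± 0.3 in D/KO (adjusted p = 0.099) and -0.72 ± 0.27 in WT cells (adjusted p = 0.0482), and the second was lost on leaving out any 1 of the 6 libraries (-0.84 to -0.54, adjusted p of 0.0531 to 0.216).

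Il11 had 55, 38 and 101 counts at day 0 and 27, 23 and 44 counts at day 4 in D/KO libraries, and 58, 54 and 68 against 40, 21 and 18 counts in WT libraries. The log2 fold changes were -1.22 ± 0.41 in D/KO (adjusted p = 0.0165) and -1.2 ± 0.41 in WT cells (adjusted p = 0.031). With VC it went from 33, 24 and 45 to 18, 16 and 21 counts in D/KO (-1.26 ± 0.44, adjusted p = 0.0156) and from 34, 30 and 24 to 30, 17 and 23 counts in WT libraries (-0.52 ± 0.44, adjusted p = 0.352). The D/KO groups without VC overlapped, and those with VC did not. Against day 0 without VC the D4 + VC values of Il11 were -1.98 in D/KO (adjusted p = 0.000187) and -1.29 in WT cells (adjusted p = 0.0131). The Il11 calls were fragile. That in D/KO cells was lost without D0 replicate 3 (-0.78, adjusted p = 0.183) or D4 replicate 1 (-1.13, adjusted p = 0.0623) or 2 (-1.03, adjusted p = 0.0823), that in WT cells without any of D0 replicates 1 to 3 or D4 replicates 2 and 3 (-1.25 to -1, adjusted p of 0.0534 to 0.134), and that in D/KO + VC without D0 + VC replicate 3 (-1, adjusted p = 0.0904).

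Stat3, the transcription factor gene, changed the least of the genes that passed. D/KO libraries had 278, 274 and 293 CPM at day 0 and 216, 206 and 247 CPM at day 4 (-0.34 ± 0.09, adjusted p = 0.00178), a call lost in a fit of only these 2 groups (adjusted p = 0.0924). With VC they went from 268, 265 and 312 to 180, 170 and 175 CPM (-0.69 ± 0.09, adjusted p = 1.96e-08), and WT + VC libraries from 271, 293 and 283 to 201, 208 and 203 CPM (-0.47 ± 0.09, adjusted p = 2.89e-05). The groups did not overlap in these 3 arms. WT cells without VC stayed near their start, at 287, 257 and 263 and then 280, 267 and 267 CPM (0.01 ± 0.09, adjusted p = 0.94, 95% interval -0.16 to 0.19). The difference between the lines without VC was -0.35 ± 0.12 (adjusted p = 0.0474), lost in 10 of the 12 fits that left out 1 library (-0.37 to -0.31, adjusted p of 0.0587 to 0.129) and kept without D/KO D4 replicate 3 or WT D0 replicate 1.

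Socs3 peaked at day 2 with VC. D/KO libraries had 92.6, 84.6 and 116 CPM at day 0, 226, 232 and 243 CPM at day 2 and 193, 212 and 193 CPM at day 4. The log2 fold changes were 1.25 ± 0.14 at day 2 (adjusted p = 6.7e-09) and 1.03 ± 0.14 at day 4 (adjusted p = 2.08e-07). WT libraries went from 53.2, 72.6 and 60.2 to 106, 132 and 132 CPM at day 2 (1 ± 0.14, adjusted p = 3.32e-06) and to 124, 113 and 113 CPM at day 4 (0.91 ± 0.14, adjusted p = 5.82e-06). Neither of these later groups overlapped day 0. With VC, Socs3 rose at day 2 by 1.29 ± 0.14 in D/KO and 1.21 ± 0.14 in WT cells, to 237, 212 and 242 and to 421, 304 and 294 CPM. At day 4 it was back near D0 + VC, with changes of 0.17 ± 0.14 (adjusted p = 0.322, 95% interval -0.12 to 0.45) and -0.09 ± 0.14 (adjusted p = 0.629, -0.37 to 0.19). Against day 0 without VC the D4 + VC value of Socs3 was 0.12 in D/KO (adjusted p = 0.514) and 1.15 in WT cells (adjusted p = 2.95e-08), and the difference between the lines turned from 0.26 (adjusted p = 0.343) to -1.03 (adjusted p = 0.000171).

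**Figure D2:**
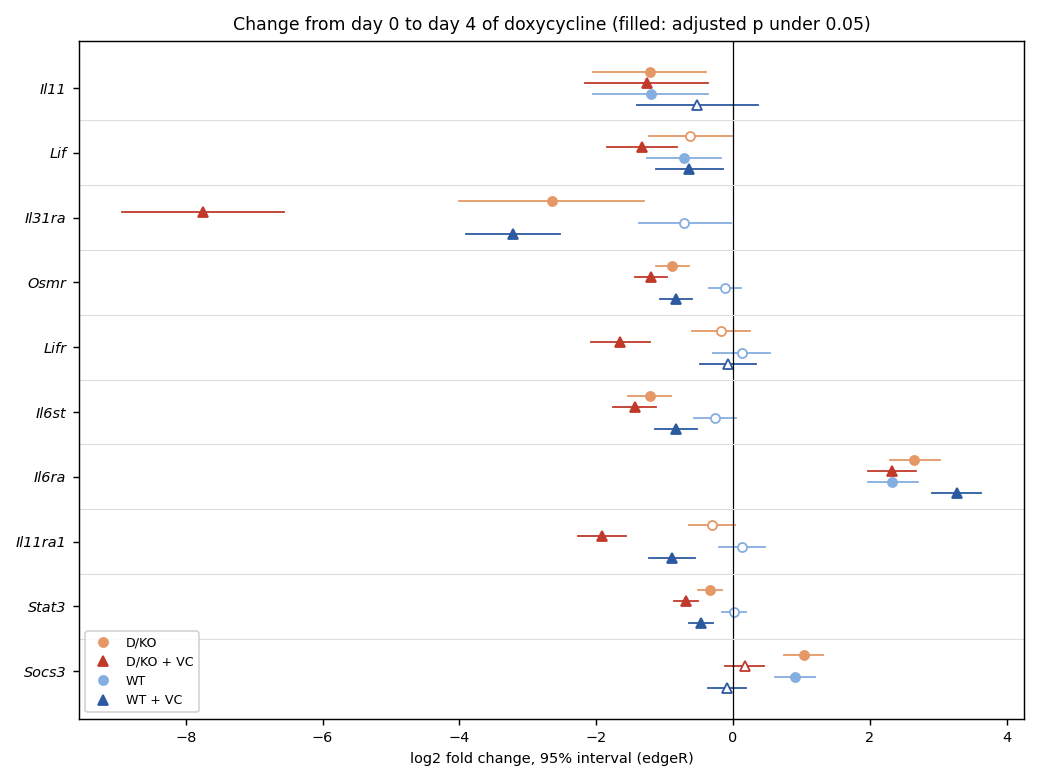
Log2 fold change from day 0 to day 4 of doxycycline with its 95% interval for each gene in D/KO, D/KO + VC, WT and WT + VC cells, each against day 0 of the same arm, with filled symbols where the edgeR adjusted p is under 0.05. Il6ra lies between 2.32 and 3.27 in all 4 arms, and Il31ra in D/KO + VC is farthest to the left at -7.75.

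By day 2, part of this pattern was in place. In D/KO cells 7 of the 10 passed without VC, where 27.4% of all genes passed, and 8 with VC, where 47.4% passed. In WT cells 4 passed without VC, where 10.6% of all genes passed, and 5 with VC, where 27.5% passed. Pou5f1 was lower in WT than in D/KO cells at day 2, at 12.5 to 48.8 against 62.2 to 76 CPM. With VC it stood at 40 to 55 against 86.2 to 111 CPM. The part of this in the counts was not tested. Il6ra had risen in all 4 arms, by 1.47 ± 0.18 in WT to 2.37 ± 0.18 in WT + VC cells. Il31ra had fallen by 3.11 ± 0.72 in D/KO, 4.42 ± 0.41 in D/KO + VC and 2.64 ± 0.33 on the log2 scale in WT + VC cells. Against day 0 without VC, the day 2 + VC values of Il31ra were -0.73 in D/KO (adjusted p = 0.259) and -0.54 in WT cells (adjusted p = 0.212). Il11 was lowest at day 2 in D/KO + VC cells, at 5, 18 and 5 counts (-2.12 ± 0.48, adjusted p = 0.000419). The day 2 falls of Osmr (-0.36 ± 0.11) and Il6st (-0.48 ± 0.15) in WT cells were each lost without WT D2 replicate 2 (-0.31 and -0.37, adjusted p = 0.164 and 0.215), the library of the reprogramming table with the lowest long genes, and also without WT D0 replicate 1 or 3 or WT D2 replicate 3, with Osmr lost without WT D0 replicate 2 too (adjusted p of 0.0506 to 0.191 over these). The Il11 fall in D/KO cells was lost without D0 replicate 3 (-1.11, adjusted p = 0.068), and the Lif fall in D/KO + VC without D0 + VC replicate 1 or D2 + VC replicate 2 or 3 (-0.62 to -0.42, adjusted p of 0.0697 to 0.207). The baseline decided the direction of Lif at day 2 + VC, which against day 0 without VC was 1.21 in D/KO (adjusted p = 0.000307) and 0.4 in WT cells (adjusted p = 0.231). Marker sums had also moved by day 2 with VC. The keratinocyte sum went from 4.82 to 6.54 up to 112 to 131 CPM in D/KO and from 3.93 to 4.61 up to 15.8 to 16.9 CPM in WT cells. The fibroblast sum went from 191000 to 263000 down to 73100 to 73500 CPM in D/KO cells. In WT cells it went from 162000 to 178000 down to 86500 to 97300 CPM. The part of these markers was not tested.

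VC without doxycycline raised Il31ra and Lif and lowered Il6st in both lines. Of the 10, 5 passed in D/KO cells, where 26.1% of all genes passed (12.1% higher, 14% lower), and 4 in WT cells, where 29.4% passed (15.1% higher, 14.4% lower). Il31ra rose by 3.69 ± 0.39 in D/KO (adjusted p = 1.72e-09) and 2.1 ± 0.31 in WT cells (adjusted p = 2.2e-06). Lif rose by 1.93 ± 0.27 and 1.47 ± 0.25 (adjusted p = 4.97e-07 and 1.97e-05), and Il6st fell by 0.89 ± 0.15 and 0.8 ± 0.15 on the log2 scale (adjusted p = 1.63e-05 and 7.35e-05). Lifr rose in D/KO cells (1 ± 0.21, adjusted p = 0.000305), as did Il6ra (0.77 ± 0.19, adjusted p = 0.00262), the second lost without D0 + VC replicate 3 (0.55, adjusted p = 0.0528). Il11ra1 in D/KO cells missed the threshold (0.43 ± 0.17, adjusted p = 0.0539) and passed it with DESeq2 and with either other filter. Socs3 rose in WT cells from 53.2, 72.6 and 60.2 to 177, 137 and 125 CPM (1.24 ± 0.14, adjusted p = 1.52e-08), while D/KO libraries had 92.6, 84.6 and 116 CPM without and 93.3, 91.7 and 97.7 CPM with VC (-0.05 ± 0.14, adjusted p = 0.834). With VC the fibroblast marker sum went from 96800 to 133000 up to 191000 to 263000 CPM in D/KO and from 63200 to 64000 up to 162000 to 178000 CPM in WT cells. The endothelial sum went from 739 to 836 down to 280 to 322 CPM in D/KO and from 15 to 17.8 down to 5.97 to 7.77 CPM in WT cells, and the Schwann and neural sum from 60.1 to 73.3 down to 8.87 to 12.1 CPM and from 23.5 to 26.5 down to 3.72 to 3.87 CPM. Their part in the result was not tested. A contrast added after the values were seen tested the difference between the lines, and 2 of the 10 passed, where 15.3% of all genes passed. Socs3 responded less in D/KO cells (-1.29 ± 0.2, adjusted p = 2.15e-05) and Il31ra more (1.59 ± 0.5, adjusted p = 0.0265).

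At day 4 of doxycycline, VC lowered Osmr, Il6st, Il11ra1 and Stat3 in both lines and raised Il6ra and Lif. In D/KO cells 7 of the 10 passed, where 34.5% of all genes passed, and in WT cells 6, where 22.4% passed. Il6st fell by 1.11 ± 0.15 in D/KO and 1.37 ± 0.15 on the log2 scale in WT cells (adjusted p = 3.07e-07 and 8.61e-09). Lif rose by 1.23 ± 0.28 and 1.54 ± 0.26 (adjusted p = 0.000816 and 2.49e-05). Socs3 fell in D/KO cells (-0.91 ± 0.14, adjusted p = 2.89e-06) and not measurably in WT cells (0.24 ± 0.14, adjusted p = 0.25). Whether this differed between the lines was not tested. The Il6ra rise in D/KO cells (0.44 ± 0.16) was lost without D4 replicate 2 (0.29, adjusted p = 0.201) or D4 + VC replicate 1 (0.32, adjusted p = 0.167), and that in WT cells was 1.34 ± 0.16 (adjusted p = 3.49e-08). Between D4 and D4 + VC the keratinocyte sum went from 45.9 to 63 up to 343 to 474 CPM in D/KO and from 4.2 to 4.88 up to 14.9 to 16.1 CPM in WT cells. The D/KO endothelial sum went from 386 to 431 up to 568 to 798 CPM, the macrophage and leukocyte sum from 16.7 to 21.4 down to 9.58 to 11.4 CPM and the myogenic sum from 11.2 to 14 down to 1.69 to 3.18 CPM. Of the 7 endothelial markers 2 were called higher and 1 lower in D/KO cells, and of the 6 Schwann and neural markers 1 higher and 4 lower. In WT cells the Schwann and neural sum went from 17.3 to 17.8 down to 3.87 to 7.19 CPM. The WT fibroblast sum went from 52600 to 54500 up to 64400 to 76000 CPM, with 6 of 10 called higher and 3 lower. Their part in the result was not tested.

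Before doxycycline, the lines already differed. Of the 10, 5 passed between D/KO and WT cells at day 0, where 43.2% of all genes passed. Il31ra was lower in D/KO cells by 2.47 ± 0.39 on the log2 scale, and Il6st fell by 0.87 ± 0.15 from WT to D/KO cells, while Socs3 was higher in D/KO cells by 0.66 ± 0.14 (adjusted p = 4.13e-06, 1.4e-05 and 0.00029). Lif was also lower in D/KO cells (-0.69 ± 0.27, adjusted p = 0.0379) but lost its call in each of the 6 fits that left out 1 library (-0.79 to -0.64, adjusted p of 0.0506 to 0.101). Il11ra1 (-0.48 ± 0.17, adjusted p = 0.018) lost its call without D0 replicate 2 or 3 of D/KO or replicate 1 or 2 of WT (-0.45 to -0.3, adjusted p of 0.0545 to 0.174). At day 0 the Schwann and neural sum was 60.1 to 73.3 CPM in D/KO and 23.5 to 26.5 CPM in WT cells. The myogenic sum was 20.8 to 34.4 and 1.82 to 3.01 CPM, with up to 4 of its 5 genes at 0. The part of these and of the endothelial and macrophage sums given above was not tested. Over the day 4 interaction contrasts, 3 of the 10 passed without VC, where 14.3% of all genes passed, and 5 with VC, where 29.4% passed.

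Of 48 other genes of the pathway, 40 were tested in the reprogramming table. At day 4, 5 were higher and 18 lower in D/KO cells, 4 and 27 in D/KO + VC, 6 and 8 in WT and 8 and 24 in WT + VC cells, with median log2 fold changes of -0.24, -0.53, 0 and -0.4. The shares of all genes called higher and lower were 18.3% and 18.7% in D/KO, 27.9% and 26.2% in D/KO + VC, 11.7% and 12.8% in WT and 22.7% and 22% in WT + VC cells. Cish, a STAT-induced inhibitor of cytokine receptors, rose in all 4 arms by 1.43 ± 0.22 to 2.7 ± 0.23. Ctf1, the cardiotrophin ligand, fell by 2.12 ± 0.32 in D/KO + VC, 1.59 ± 0.29 in WT and 1.97 ± 0.29 on the log2 scale in WT + VC cells, and Cntfr, a receptor chain for ciliary neurotrophic factor, fell by 2.62 ± 0.65 in D/KO, 1.94 ± 0.63 in WT and 2.55 ± 0.7 in WT + VC cells. Dusp1, a MAP kinase phosphatase, rose by 2.14 ± 0.21 in D/KO cells, Icam1, an adhesion molecule, fell by 2.46 ± 0.19 in D/KO + VC, Socs1, a relative of Socs3, fell by 2.22 ± 0.18 in WT + VC and Ccl2, a chemokine, fell by 0.81 ± 0.23 in WT cells. Saa3, an acute-phase gene, went from 3, 3 and 11 counts to 0 in each D/KO library and from 11, 18 and 21 counts to 0 in each D/KO + VC library. Il6 was too low to test.

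With VC alone at day 0, 8 of the 40 rose and 9 fell in D/KO cells and 13 rose and 7 fell in WT cells, where 12.1% of all genes were higher and 14% lower in D/KO and 15.1% and 14.4% in WT cells. The 4 with the widest change in D/KO cells were Il27ra (-1.35 ± 0.35), Ctf1 (1.12 ± 0.3), Socs1 (1.09 ± 0.18) and the IL-4 receptor gene Il4ra (-0.94 ± 0.11). In WT cells they were Icam1 (1.8 ± 0.18), the angiogenic factor gene Vegfa (-1.78 ± 0.14), Socs1 (1.51 ± 0.17) and Stat2 (1.11 ± 0.27).

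Over the 36 reprogramming libraries, the genes whose log2 CPM followed Il31ra most closely were Ripor3 (Pearson's r = 0.959), Plxnc1, Tpst1, Zfp354c and Ahrr (0.946). Those closest to Osmr were Epb41l1 (0.915), Serpine2, Lpar1, Man1a2 and Bicc1 (0.888), and those closest to Lif were Dpep1 (0.888), Tmem26, Heph, Mmp2 and Znhit6 (0.865). These are descriptions over libraries that share groups.

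In the inhibitor table, libraries differed in how long genes stood against short genes (log2 CPM of genes of at least 6534 bases minus genes of at most 2488 bases, each relative to the average over libraries). This measure was -1.104 in WT skin replicate 1, -0.78 in Repsox replicate 2 and -0.611 in WT tail tip replicate 3, and between -0.363 and 0.376 elsewhere. Il6st (11099 bases) was low and Il11ra1 (4471 bases) high in these libraries. In Repsox, Il6st stood at 3500, 1690 and 3580 CPM and Il11ra1 at 137, 246 and 146 CPM, with replicate 2 apart in both. Values that turn on these libraries are given with and without them. For the reprogramming table the measure used 6474 and 2459 bases. There, WT cells without VC had 0.176, -0.045 and 0.177 at day 0 and 0.444, 0.454 and 0.458 at day 4. With VC, WT cells had -0.306, 0.186 and -0.053 and then 0.448, 0.198 and 0.301. D/KO cells without VC had -0.165, 0.038 and -0.107 and then -0.094, -0.422 and 0.165. The part of this shift in the line differences was not tested.

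**Figure D3:**
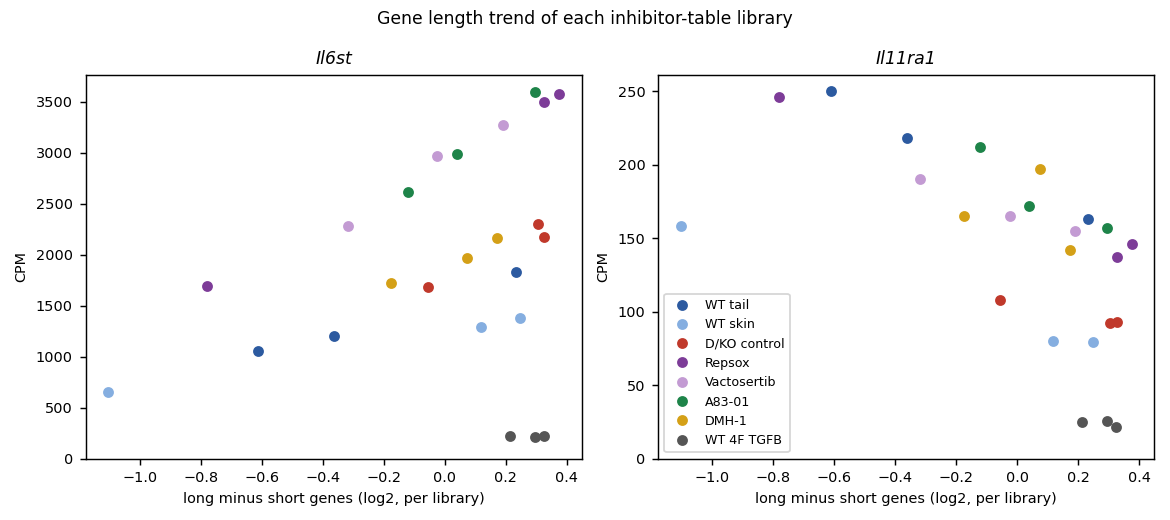
CPM of Il6st (left) and Il11ra1 (right) in each of the 24 libraries of the inhibitor table against the long-minus-short gene measure of that library (log2), coloured by group. Repsox replicate 2 (-0.78) and WT skin replicate 1 (-1.104) lie to the left of their own groups.

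Inhibitors of TGFb and BMP receptors were compared with the libraries labelled D/KO control. Repsox, Vactosertib and A83-01 inhibit TGFb type I receptors and DMH-1 inhibits BMP type I receptors. The authors describe Vactosertib as also inhibiting a BMP receptor. Socs3 was lower with all 4 compounds, and Il31ra was higher with Repsox and A83-01. Of the 10 genes, 4 passed with Repsox, where 20.7% of all genes passed, 2 with Vactosertib, where 18.1% passed, 5 with A83-01, where 27.5% passed (13.6% higher, 13.9% lower), and 2 with DMH-1, where 7.25% passed. The 4 comparisons share their control libraries. These counts depended on the fit. Fits of only the groups compared called 1 gene with Repsox, losing Il31ra, Il11ra1 and Stat3, and gained Il31ra, Osmr, Il6st, Il11 and Stat3 with Vactosertib (7), Lifr, Il6st and Stat3 with A83-01 (8) and Lifr and Il11ra1 with DMH-1 (4). Over all genes, these fits moved the calls from 2828 to 4317 with Vactosertib and from 1135 to 1910 with DMH-1. A length trend covariate, added after the data were seen, called 8, 7, 9 and 6 in the same order and lost none. It was centred on each group's mean, so it cannot remove a length difference between groups. Calls over all genes rose with it too, from 3237 to 6334, 2828 to 5871, 4309 to 7267 and 1135 to 3851. Socs3 was called in all of these fits.

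Socs3 stood at 82.2, 85.3 and 90.6 CPM in control libraries. It was 41.8, 39.9 and 48.1 CPM with Repsox, 48.7, 43.6 and 57.7 with Vactosertib, 38.8, 38.3 and 36.7 with A83-01 and 59.2, 51.8 and 60 with DMH-1. Every treated library lay below every control library. The 7 endothelial markers summed to 341 to 383 CPM in control libraries, 155 to 201 with A83-01 and 396 to 487 with DMH-1. The fibroblast markers summed to 88900 to 101000 CPM in controls, 43800 to 62900 with Repsox, Vactosertib or A83-01 and 75000 to 93100 with DMH-1. The macrophage and leukocyte markers summed to 14.1 to 18.7 CPM in controls, 19.6 to 36.8 with the first 3 compounds and 14.6 to 18.1 with DMH-1. The 6 Schwann and neural markers summed to 71.7 to 87.1 CPM in controls, 94.1 to 121 with A83-01, 63.8 to 79.6 with Repsox or Vactosertib and 59.3 to 69.3 with DMH-1, and of the 6, 5 were called higher with A83-01, 5 with Repsox, 4 with Vactosertib and 0 with DMH-1, and 1 lower with each compound. The part of these markers in the results for Socs3 and Il31ra was not tested. The log2 fold changes were -0.99 ± 0.16, -0.78 ± 0.16, -1.18 ± 0.16 and -0.59 ± 0.16, with adjusted p of 0.000112, 0.00144, 9.2e-06 and 0.0264. The call for DMH-1 was lost on leaving out any 1 of the 6 libraries (-0.63 to -0.53, adjusted p of 0.0564 to 0.129).

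Il31ra had 13, 28 and 23 counts in control libraries, 139, 42 and 163 with Repsox, 54, 102 and 32 with Vactosertib, 106, 143 and 150 with A83-01 and 24, 21 and 15 with DMH-1. Every Repsox, Vactosertib and A83-01 library lay above every control library in CPM, and the DMH-1 libraries overlapped the controls. It rose by 1.96 ± 0.63 with Repsox (adjusted p = 0.0322) and 2.22 ± 0.63 with A83-01 (adjusted p = 0.0118), and the changes with Vactosertib (1.34 ± 0.64, adjusted p = 0.176) and DMH-1 (-0.57 ± 0.7, adjusted p = 0.763) did not pass. The Repsox call was lost without any of the 3 control libraries or Repsox replicate 1 or 3 (1.62 to 2.17, adjusted p of 0.065 to 0.14), and the A83-01 call without control replicate 1 (1.88, adjusted p = 0.0671).

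Il11ra1 stood at 108, 93.1 and 92.6 CPM in control libraries and was above them in all 12 treated libraries. It rose by 0.85 ± 0.24 with Repsox, 0.8 ± 0.24 with Vactosertib and 0.88 ± 0.24 with A83-01 (adjusted p = 0.0159, 0.0263 and 0.00918), and the change with DMH-1 was 0.78 ± 0.24 (adjusted p = 0.0564). Without Repsox replicate 2, the library with low long genes, it was 0.53 with Repsox (adjusted p = 0.131), and that call was also lost without control replicate 2 or 3 (0.81 in both, adjusted p = 0.0593 and 0.0601). The Vactosertib call was lost without control replicate 2 or 3 or Vactosertib replicate 1 or 3 (0.72 to 0.82, adjusted p of 0.0547 to 0.0913).

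Il6st did not pass with any compound, at 0.51 ± 0.27 with Repsox (adjusted p = 0.216), 0.47 ± 0.27 with Vactosertib, 0.58 ± 0.27 with A83-01 and -0.07 ± 0.27 with DMH-1. Without Repsox replicate 2 the Repsox value was 0.79 (adjusted p = 0.0388). Il11 was lower with A83-01 (-1.03 ± 0.28, adjusted p = 0.00799) and DMH-1 (-0.98 ± 0.28, adjusted p = 0.0348), from 110, 78 and 69 counts to 84, 41 and 37 and to 57, 85 and 37 counts. The A83-01 call of Il11 was lost without A83-01 replicate 3 (-0.81, adjusted p = 0.0566) and the DMH-1 call without any control library or DMH-1 replicate 1 or 3 (-1.04 to -0.86, adjusted p of 0.069 to 0.157). With Repsox Il11 was -0.77 ± 0.28 (adjusted p = 0.0508), and without Repsox replicate 2 it was -1.14 (adjusted p = 0.00605).

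Osmr was lower with A83-01 (-0.57 ± 0.18, adjusted p = 0.0212), at 156, 198 and 171 CPM against 231, 278 and 271 CPM, a call lost without control replicate 2 or 3 or A83-01 replicate 1 or 3 (-0.56 to -0.49, adjusted p of 0.0661 to 0.1). Stat3 was lower with Repsox (-0.41 ± 0.13, adjusted p = 0.0335), at 229, 171 and 223 CPM against 253, 286 and 286 CPM, a call lost without control replicate 2 or 3 or Repsox replicate 2 (-0.38 to -0.29, adjusted p of 0.109 to 0.176). Lifr, Il6ra and Lif passed with no compound. Lifr with DMH-1 was closest (0.49 ± 0.15, adjusted p = 0.0589), with 39.1, 35.6 and 37.9 CPM above the 25.8, 29.2 and 25.1 CPM of the controls in every library.

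At the matched dose of 0.1 µM, Repsox and Vactosertib gave no difference that passed for any of the 10 genes, in 1 of 2 pairs compared. No gene of the table passed either (0% of all genes) with edgeR, 347 had an unadjusted p under 0.05, and DESeq2 called 6. The 95% intervals of the log2 difference, Repsox minus Vactosertib, were -0.57 to 1.82 for Il31ra and -0.54 to 0.13 for Socs3, and -0.45 to 0.56 for Il11ra1. At 1 µM, A83-01 and DMH-1 differed for 3 of the 10, where 20.5% of all genes passed. Il31ra was higher with A83-01 by 2.79 ± 0.64 (adjusted p = 0.00358), and Lifr and Socs3 were lower, by -0.83 ± 0.15 and -0.59 ± 0.16 (adjusted p = 0.000467 and 0.0117). For Il11ra1 the interval was -0.4 to 0.6.

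**Figure D4:**
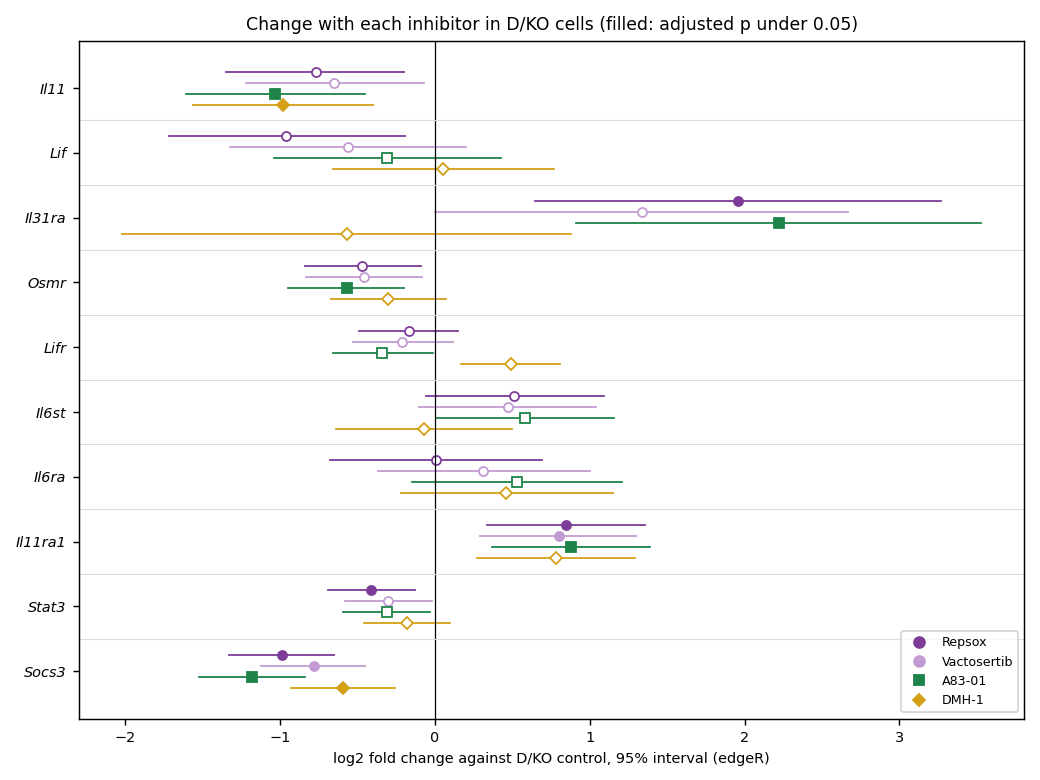
Log2 fold change against D/KO control with its 95% interval for each gene with Repsox and Vactosertib (0.1 µM) and A83-01 and DMH-1 (1 µM), with filled symbols where the edgeR adjusted p is under 0.05. Socs3 is filled for all 4 compounds, between -1.18 and -0.59, and Il31ra is filled for Repsox (1.96) and A83-01 (2.22).

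Of the other pathway genes, 42 were tested in the inhibitor table. With Repsox 9 were higher and 13 lower, with Vactosertib 8 and 10, with A83-01 11 and 9 and with DMH-1 6 and 7, where 20.7%, 18.1%, 27.5% and 7.25% of all genes passed in either direction. Il4ra fell by 2.47 ± 0.16 with Repsox, 2.28 ± 0.16 with Vactosertib, 2.48 ± 0.16 with A83-01 and 1.33 ± 0.16 on the log2 scale with DMH-1. Icam1 rose with Repsox (1.55 ± 0.24), Vactosertib (1.44 ± 0.24) and A83-01 (1.6 ± 0.24). Bcl3, an atypical member of the IkB family, fell by 1.4 ± 0.18 with Repsox and 1.54 ± 0.18 with A83-01. The list named by size also held Saa3 (-3.61 ± 0.67 with Repsox), Il27ra (1.26 ± 0.26) and Hif1a (-1.26 ± 0.1) with Vactosertib, Timp1 (-1.54 ± 0.29) with A83-01 and Clcf1 (-1.02 ± 0.16) with DMH-1. Stat2 (1.81 ± 0.47, adjusted p = 0.0218) passed with DMH-1 through replicate 2 alone, which held 161 CPM where the other DMH-1 libraries held at most 26.8 CPM. Without it the change was 0.38 (adjusted p = 0.538). Il6 had 1 to 16 counts in the D/KO libraries and did not pass with any compound.

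The control groups differed from each other too. Between D/KO control and WT tail tip 4 of the 10 passed, all lower in D/KO, where 34.6% of all genes passed. Il6ra stood at 3.41, 3.56 and 4.37 CPM in D/KO and 18.2, 22.4 and 17.8 CPM in WT tail tip (-2.37 ± 0.33, adjusted p = 6.97e-06). Il31ra (-2.27 ± 0.63, adjusted p = 0.00844), Il11ra1 (-1.1 ± 0.24) and Lif (-1.17 ± 0.33, adjusted p = 0.00853) were lower as well, with the Il31ra call lost without WT tail tip replicate 2 (-1.72, adjusted p = 0.0506) and the Lif call without D/KO control replicate 1 (-0.99, adjusted p = 0.0527). Without WT tail tip replicate 3, the library with low long genes, Il11ra1 was -0.96 (adjusted p = 0.00923). Il6st, lower in D/KO than in WT cells at day 0 of the reprogramming table, was 0.59 ± 0.27 here (adjusted p = 0.105), 0.86 (adjusted p = 0.0307) without WT tail tip replicate 2 and 0.44 (adjusted p = 0.334) without WT tail tip replicate 3. Cells, ages and tables differ between these comparisons. Endothelial markers summed to 341 to 383 CPM in D/KO control and 78.1 to 96.7 in WT tail tip, and keratinocyte markers to 2.05 to 3.72 and 14.8 to 17.7 CPM with up to 7 and 5 of the 9 at 0, and their part in the result was not tested.

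WT fibroblasts from skin differed from those of the tail tip in 7 of the 10, where 34.2% of all genes passed. The ligand genes were higher in skin, Il11 at 279, 233 and 193 against 91, 62 and 90 counts (1.83 ± 0.26, adjusted p = 1.3e-05) and Lif at 157, 389 and 280 against 120, 132 and 122 counts (1.46 ± 0.3, adjusted p = 0.000617). Il6 was higher too, at 1139, 406 and 291 against 43 to 71 counts (3.77 ± 0.43, adjusted p = 7.06e-07). Of the 6 receptor genes 4 were lower, with log2 differences of -2.32 ± 0.63 for Il31ra, -1.47 ± 0.31 for Il6ra, -1.08 ± 0.16 for Lifr and -0.99 ± 0.24 for Il11ra1, while Osmr (0.2, adjusted p = 0.432) and Il6st (-0.3, adjusted p = 0.437) did not pass. Schwann and neural markers summed to 241 to 270 CPM in skin and 75.1 to 86 in tail tip, and myogenic markers to 57.4 to 84.1 and 2.09 to 3.76 CPM. Endothelial markers summed to 197 to 279 CPM in skin and 78.1 to 96.7 in tail tip, and keratinocyte markers to 3.27 to 4.42 and 14.8 to 17.7 CPM, and their part in the result was not tested. Skin replicate 1 stood apart. Without it Il31ra was -1.74 (adjusted p = 0.0134), Il6ra -1.09, Lifr -0.99, Il11ra1 -1.4, Il11 1.75, Lif 1.77 and Il6 3.05, and Il6st (-0.03, adjusted p = 0.941) and Osmr (0.39, adjusted p = 0.073) did not pass. Socs3 (0.47 ± 0.16, adjusted p = 0.0273) was 0.7 without it, and lost its call without WT tail tip replicate 1 or 2 or skin replicate 2 or 3 (0.3 to 0.43, adjusted p of 0.0849 to 0.183). A fit of only these 6 libraries called 3 genes, Lifr, Il11 and Lif, while calls over all genes went from 5348 to 2591.

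The 3 libraries of 4FJ_(+/-)_OCT4-GFP cells labelled TGFB had no matched control and entered no test. Lif stood at 173, 145 and 181 CPM and Il11 at 120, 128 and 134 CPM, where the other 21 libraries of the table held at most 16.6 and 12.5 CPM. Il6st (222, 221 and 211 CPM), Osmr (46.7, 46.2 and 46.1 CPM), Lifr (6.94, 6.64 and 7.06 CPM), Il11ra1 (21.3, 25.1 and 25.8 CPM) and Socs3 (11.8, 11.6 and 13.2 CPM) were each below every other library of the table. Il31ra had 0 counts in all 3, and WT tail tip was at least 115-fold higher against a floor of 3 counts over the group. Stat3 (210, 217 and 228 CPM) lay within the range of the others. The untreated day 0 libraries of the reprogramming table carry the same line and age labels, and there Lif stood at 3.7, 3.6 and 3.68 CPM, Il11 at 3.2, 2.9 and 3.47 CPM, Il6st at 3470, 3010 and 3310 CPM, Osmr at 248, 242 and 274 CPM and Il31ra at 71, 82 and 69 counts. Endothelial markers summed to 1.48 to 2.02 CPM in the cells labelled TGFB and 15 to 17.8 CPM in those day 0 libraries. Macrophage and leukocyte markers summed to 26.5 to 30 and 82.4 to 155 CPM. Schwann and neural markers summed to 59.8 to 70.2 and 23.5 to 26.5 CPM, and fibroblast markers to 89200 to 89800 and 63200 to 64000 CPM. Ercc1 stood at 42.3 to 47.8 and 18 to 21.9 CPM. The tables were scaled separately and no test was made across them, so treatment, culture and table cannot be told apart.

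**Figure D5:**
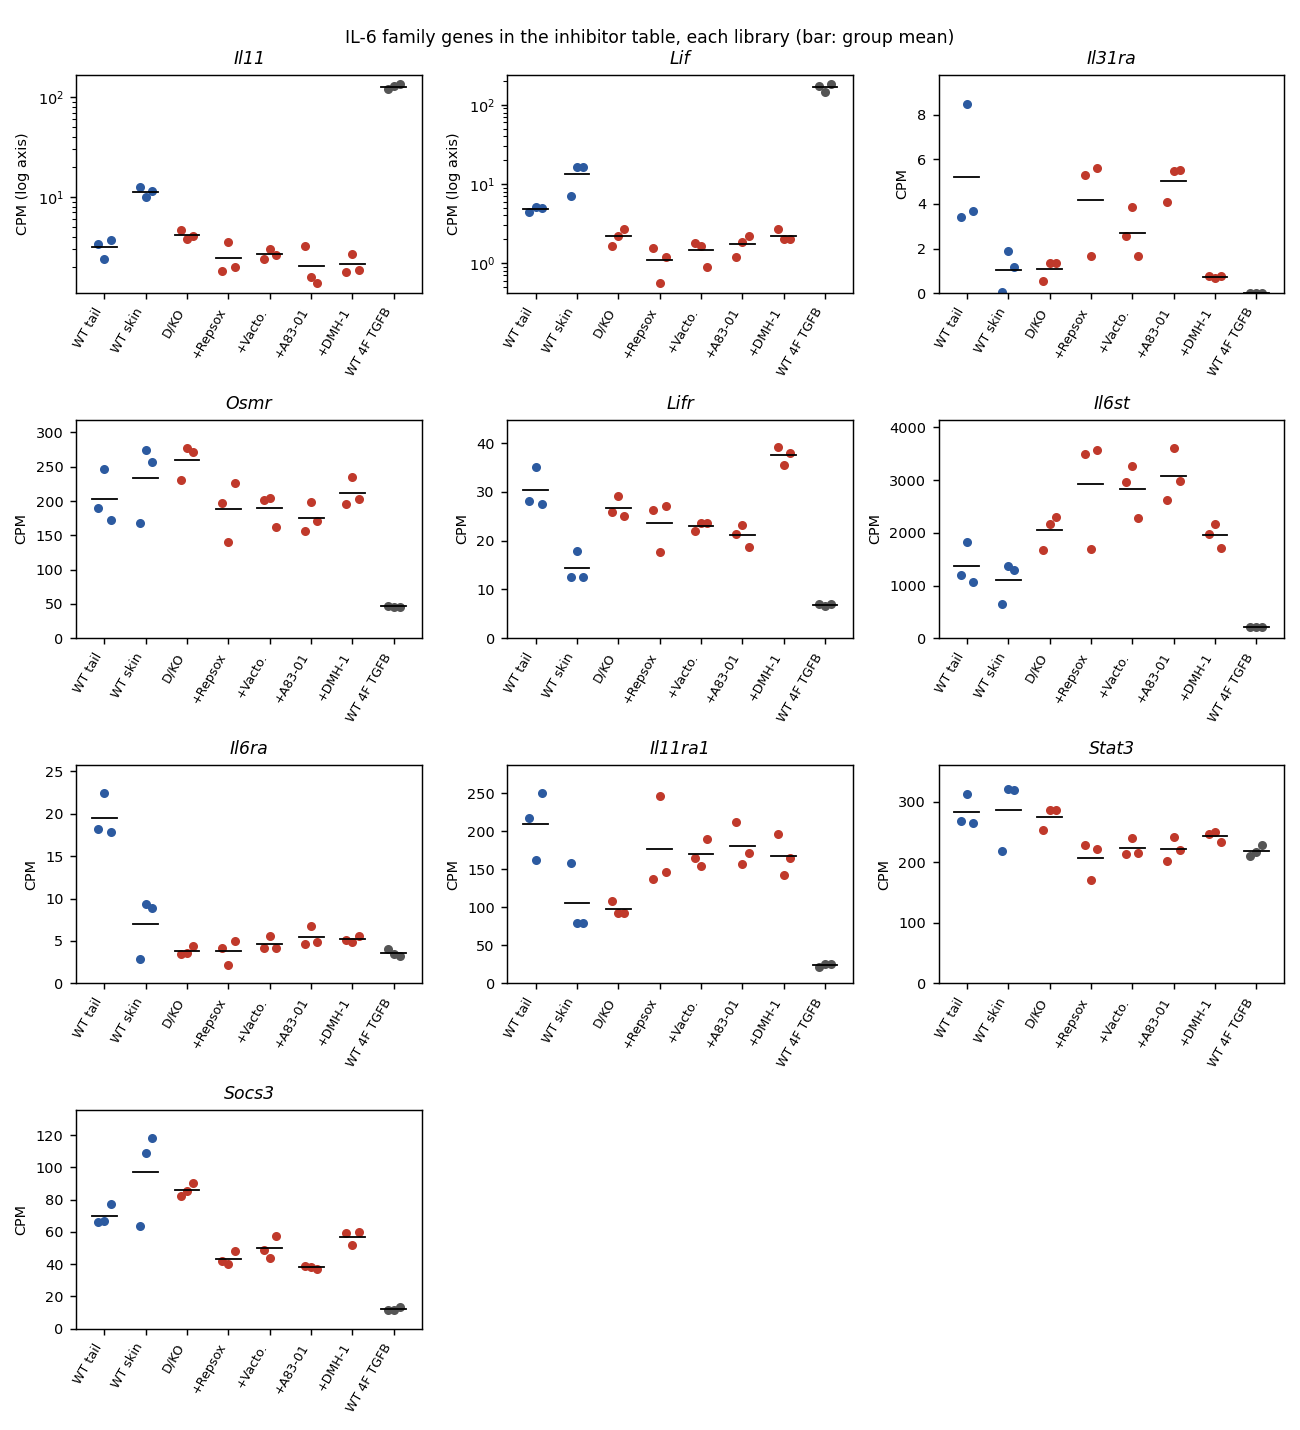
CPM of each gene in each library of the inhibitor table, 3 points a group with a bar at the group mean, for WT (blue), D/KO (red) and WT 4F cells labelled TGFB (grey), on linear axes from 0 except for Lif and Il11, which have log axes. Lif and Il11 are highest and Il6st, Osmr, Lifr, Il11ra1 and Socs3 lowest in the cells labelled TGFB.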

How the data were processed

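Per the labels and the submitters' processing notes, the authors trimmed reads with Trim Galore after FastQC, aligned them to GRCm39 with HISAT2 and counted them per gene with featureCounts (Subread). Tool versions, annotation, strand setting and treatment of multi-mapped reads are not given in the sources used here. What was deposited is a gene by library count matrix without normalization, once for 36 and once for 24 libraries, and 0 per-sample columns were left unused. Of 56980 identifiers, 56236 matched GENCODE M39, from which names and positions were taken.

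Each table was fitted once over all its groups with edgeR 4.0.16 (R 4.3.3, TMM scaling, filterByExpr set to min.count 10 and min.total.count 15, quasi-likelihood test), leaving 15832 and 15652 genes. The p-values were adjusted by Benjamini-Hochberg over all genes tested, and calls used 0.05. CPM values use TMM-scaled library sizes. The fit was tested on simulated counts. Replicates differed by more than counting noise, so none was merged (variance over counting noise of 3.18 to 56.2 and 4.08 to 366). Intervals of log2 fold changes and log2 differences come from the standard errors of the edgeR fit and include the spread between libraries. The intervals of the Il31ra ratios, taken from counts summed over each group, and the floors cover counting error only. Reads carried no molecular identifiers.

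The 10 members, the pathway list, the marker lists (fibroblast, keratinocyte, endothelial, macrophage and leukocyte, Schwann and neural, myogenic) and the tests were chosen with earlier results of these data known. All 10 members are named, and of the other pathway genes the 4 with the largest absolute change among those called, except where one is not reported here. Alternatives were DESeq2 1.42.0 and its size factors, other filters, fits of fewer libraries, another baseline, a fold threshold and each library left out. A length trend covariate and a contrast of the VC response between lines were added after the data were seen. The cells labelled TGFB had no matched control and were not tested.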

Additional observations from a re-analysis of the deposited data

Results flagged for a closer look

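The change from day 0 to day 4 differed between D/KO and WT cells, by an interaction test in edgeR, for several of the 10 genes. Without VC the D/KO change minus the WT change was -0.77 for Osmr, -0.96 for Il6st and -0.35 for Stat3 on the log2 scale. With VC it was -4.54 for Il31ra, -1.57 for Lifr, -0.6 for Il6st, -0.95 for Il6ra and -1.03 for Il11ra1. The Stat3 difference was lost in 10 of the 12 fits that left out 1 library (-0.37 to -0.31, adjusted p of 0.0587 to 0.129). The Il6st difference with VC was lost without D/KO D0 + VC replicate 2, D/KO D4 + VC replicate 3, WT D0 + VC replicate 1 or WT D4 + VC replicate 1 (-0.53 to -0.45, adjusted p of 0.0747 to 0.104). Against day 0 without VC the differences were -2.95 for Il31ra, -1.01 for Lifr and -0.58 for Il6ra, the last not passing (adjusted p = 0.101). Osmr, Il6st and Stat3 are long genes (12113, 11099 and 9527 bases). Without VC, long genes stood higher against short genes in every WT library at day 4 than in any at day 0. The D/KO libraries of these days overlapped in this measure. Its part in the differences was not tested. Genotype, sex, age, line and possibly the transgene cassette cannot be told apart in these contrasts.

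The cells labelled TGFB, which entered no comparison, held a mean of 127 CPM of Il11 and 166 CPM of Lif, above every control library of the same table.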

How the results depend on the processing

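No paired analysis was possible because library numbers run over the whole table and no replicate number is shared between groups. Of 230 values of the 10 genes, 221 kept direction and side of the threshold with DESeq2 and 227 with its size factors. With each library left out, 97 of 1500 values lost their call, 18 gained one and 0 reversed. The number of the 10 genes called then ran from 2 to 4 in WT at day 2, 2 to 3 in WT at day 4, 3 to 4 between the lines at day 0, 2 to 3 for the day 4 interaction, 1 to 4 with Repsox, 1 to 2 with Vactosertib, 3 to 5 with A83-01, 0 to 1 with DMH-1 and 3 to 5 between D/KO control and WT tail tip. Requiring a log2 fold change of at least 1 left 4 in D/KO and 5 in D/KO + VC at day 2, 1 in WT at day 2, 2 in WT and 2 in WT + VC at day 4, 2 for VC in D/KO at day 0, 3 in each line for VC at day 4, 1 between the lines, 0 and 3 for the interactions without and with VC, 1 with Repsox, 0 with Vactosertib, 3 with A83-01, 0 with DMH-1 and 1 between A83-01 and DMH-1. Fits of only the groups compared called 1 with Repsox, 7 with Vactosertib, 8 with A83-01, 4 with DMH-1 and 3 between skin and tail tip, and DESeq2 called 4 with DMH-1. A length trend covariate, added after the data were seen and built from the same counts, called 8 with Repsox, 7 with Vactosertib, 9 with A83-01, 6 with DMH-1, 6 between A83-01 and DMH-1 and 7 between D/KO control and WT tail tip. This covariate was centred on each group's mean and cannot remove a length difference between groups. Over all genes, calls moved by over 1.5 times with the covariate in WT at day 2 (1672 to 2626), Repsox (3237 to 6334), Vactosertib (2828 to 5871), A83-01 (4309 to 7267), DMH-1 (1135 to 3851), A83-01 against DMH-1 (3204 to 6198), Repsox against Vactosertib (0 to 19), D/KO control against WT tail tip (5411 to 8699) and skin against tail tip (5348 to 8250), and in fits of only the groups compared for WT at day 4 (3880 to 6400), VC in D/KO at day 0 (4140 to 2523), Vactosertib (4317), DMH-1 (1910) and skin (2591). The fold threshold left between 467 (DMH-1) and 4134 genes (D/KO + VC at day 4, from 8564). With day 0 without VC as the baseline, values reversed for Lifr (0.61) and Lif (1.21) in D/KO + VC at day 2, Lif in D/KO + VC at day 4 (0.6), Lif in WT + VC at days 2 (0.4) and 4 (0.82), Socs3 in WT + VC at day 4 (1.15) and Socs3 in the interaction with VC (-1.03). The cause of these moves was not tested.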
